A study of Homo sapiens with 50 samples.

Results

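Interferon-stimulated genes were followed in H1299 human non-small cell lung carcinoma cells and in H1299shRAD9 cells, in which RAD9 had been reduced, at 4 h after exposure of dishes to 1 Gy of α particles. The set was 57 genes taken by name from the annotation of the array, of 25940 gene names in all, and each gene was represented by the brightest of its probes that were not controls. All 57 genes had a probe. H1299shRAD9 cells carried a pSUPER.retro.puro vector with a short hairpin RNA against RAD9, and H1299 cells were the untransfected parental line, so the vector and its selection went with the RAD9 reduction. Cells were grown on concentric Mylar dishes, in which bystander cells shared the medium with directly irradiated cells but were not hit. Each line had 5 groups of 5 arrays, 50 arrays in all. Sham irradiated cells received 0 Gy (CTL). Bystander cells of dishes with a micronucleus response (bystander positive, BP) had directly irradiated counterparts (DBP), and bystander cells of dishes without one (bystander negative, BN) had theirs (DBN). The dishes were therefore selected by the study on micronuclei, which are small nuclear bodies that hold lagging or broken chromosomes. According to the methods, H1299shRAD9 stood for a pair of stable transfectants that were used interchangeably, and the labels do not say which of them an array came from.

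Interferon-stimulated genes are switched on when type I or type III interferon binds its receptor, JAK kinases phosphorylate STAT proteins such as STAT2, and these join IRF9 to bind interferon-stimulated response elements. Their products sense foreign nucleic acid, degrade or sequester viral RNA, block viral entry, and conjugate the ubiquitin-like protein ISG15. Many of them have a basal level in tumor cells without added interferon, and DNA that escapes into the cytoplasm after damage can raise them through the cGAS and STING sensors. RAD9 is a part of the 9-1-1 clamp, which is loaded on damaged DNA and activates checkpoint signaling.

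Many of these genes carry the letters of the interferon-stimulated response element near their start. In the promoter table of RefSeq (GRCh38.p14), 46 of the 57 genes had an entry, which runs from 250 bases before the start of the gene to 50 bases after it, and DDX58 was found there as RIGI. The element was searched on both strands as GAAA, any 2 bases and GAAA again, and it occurred in 29 of the 46 (63.0%), against 996 of all 27305 promoters (3.65%). The stretches shown are from genes that carry the element upstream of the start. In sham irradiated cells IFI44, IFIT1, IFIT3, ISG20, DDX60 and IFITM1 were lower in H1299shRAD9, and ISG15 was not called. PARP14 was called higher than CTL in DBP, BP and DBN of H1299shRAD9, and in no group of H1299. UBE2L6, PARP9, SP110 and IFI35 were also lower in H1299shRAD9 cells but lack the element in their entries. IFIT2, which was lower too, had no entry. Capitals mark the element on either strand, and where a second copy is cut by the end of the stretch only its remaining letters are in capitals.
IFI44, chr1:78649741-78649788, plus strand: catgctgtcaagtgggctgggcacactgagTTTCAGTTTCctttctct
IFIT1, chr10:89392490-89392559, plus strand: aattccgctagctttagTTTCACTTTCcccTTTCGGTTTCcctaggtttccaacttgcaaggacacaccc
IFIT3, chr10:89327845-89327914, plus strand: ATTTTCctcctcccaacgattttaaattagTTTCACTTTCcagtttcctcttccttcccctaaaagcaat
ISG20, chr15:88638917-88638986, plus strand: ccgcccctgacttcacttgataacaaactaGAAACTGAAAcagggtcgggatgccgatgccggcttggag
DDX60, chr4:168318766-168318835, minus strand: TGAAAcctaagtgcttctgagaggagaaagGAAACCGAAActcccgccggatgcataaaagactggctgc
IFITM1, chr11:313970-314039, plus strand: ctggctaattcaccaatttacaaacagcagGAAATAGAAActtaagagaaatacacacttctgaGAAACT
ISG15, chr1:1013360-1013429, plus strand: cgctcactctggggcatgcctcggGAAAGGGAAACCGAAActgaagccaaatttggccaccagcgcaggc
PARP14, chr3:122680780-122680838, plus strand: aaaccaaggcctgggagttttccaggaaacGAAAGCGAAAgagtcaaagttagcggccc
The interferon gamma activated site, searched as TTCNNNGAA on both strands, occurred in 11 of the 46 (23.9%) and in 7.88% of all promoters. A match of letters is a description of the sequence and was not tested as a binding site.

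Median array intensity was between 97.1 and 514, and between 55.1% and 83.2% of probes were well above background. A 5' to 3' index was the median over 3485 genes of the level of the 5' probe less that of the 3' probe. In H1299shRAD9 CTL it was -1.54 to -1.48, below every array of the other H1299shRAD9 groups. These ran from -1.45 to -1.37 in DBP, -1.47 to -1.36 in BP, -1.42 to -1.31 in DBN and -1.40 to -1.30 in BN. In H1299 CTL it was -1.51 to -1.30, which overlapped the other H1299 groups. Its part in the changes from CTL was not tested. No member was saturated on any array. Of the 57 members, 46 passed the background criterion, under which fewer than 25% of the 50 arrays may lack a signal clearly above background, and these were tested within 20079 probes. A level is the log2 processed intensity relative to the median of the array, so levels of different probes were put in order only to choose the probe of each gene and some of the genes to name, and were otherwise not compared with each other. RNA came from whole dishes, in which less of a transcript per cell and fewer cells with the transcript cannot be told apart. The submitters call the samples of a group biological replicates. RAD9A itself had levels of 3.34 to 3.85 in H1299shRAD9 CTL and 3.82 to 4.18 in H1299 CTL, a difference of -0.36 (SE 0.12, n = 5 and 5, adjusted p = 0.0561) that did not pass the threshold. The carcinoma markers KRT8, KRT18 and VIM were well above background on all CTL arrays. Among leukocyte markers, PTPRC was higher (1.20) and CD68 lower (-0.91) in H1299shRAD9 CTL, and CD3E and CD14 were not called. Their part in the results was not tested.

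The H1299shRAD9 arrays fell into separate sets. Replicates 1 and 2 of all 5 groups lay on one side, and replicates 3 to 5 on the other, of the first principal component of the deviations from group means, which held 46.6% of this variance over 19670 probes. Among the members, IFI16, ISG20 and UBE2L6 were higher on all 10 arrays of replicates 1 and 2 than on all 15 arrays of replicates 3 to 5, and TRIM14, which encodes a signaling adaptor of the tripartite motif family, was lower. These 4 members are 8.70% of those tested, against 8.99% of all probes. In H1299, replicate 2 of DBN, BP and DBP stood apart from the other arrays (first component 33.3%), and replicate 1 of DBN had the highest share of probes above background (83.2%). The comparisons between lines are given with and without each of the H1299shRAD9 sets, and DBN also without H1299 replicates 1 and 2. In DBP and BP, replicate 2 of H1299 was left out only in the fits that drop 1 array in turn.

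In sham irradiated cells, 12 of the 46 members differed between the lines (26.1%), with 11 lower and 1 higher in H1299shRAD9, against 13% of all probes tested (p under 0.005 and adjusted p under 0.1, limma). Those lower were IFI44, IFIT1, PARP9, IFIT2, ISG20, UBE2L6, DDX60, SP110, IFITM1, IFIT3 and IFI35, which had between 47.4% (IFI44) and 73.4% (IFI35) of their level in H1299, and MX2 was higher. Lower calls were 6.07% of all probes and higher calls 6.9%. The median difference over the 46 members was -0.16, against 0.06 over all probes, and 30 of the 46 were lower, against 43.2% of all probes. Groups did not overlap for 9 members that were lower and 1 that was higher, which is 10 of 46, against 13.2% of all probes. At an unadjusted p under 0.05 there were 20 members, against 33.9% of all probes. No slide or scan day held CTL arrays of both lines, so slide and line cannot be told apart here. H1299shRAD9 stood for no more than a pair of transfectants, so these p-values describe the spread between arrays, not between transfectants. With each of the 10 arrays left out in turn, the calls of IFI44, IFIT1, IFIT2, IFIT3, DDX60, UBE2L6, SP110 and MX2 held in all 10 fits, those of PARP9, ISG20 and IFITM1 in 7, 6 and 5, and that of IFI35 in 2.

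**Figure D1:**
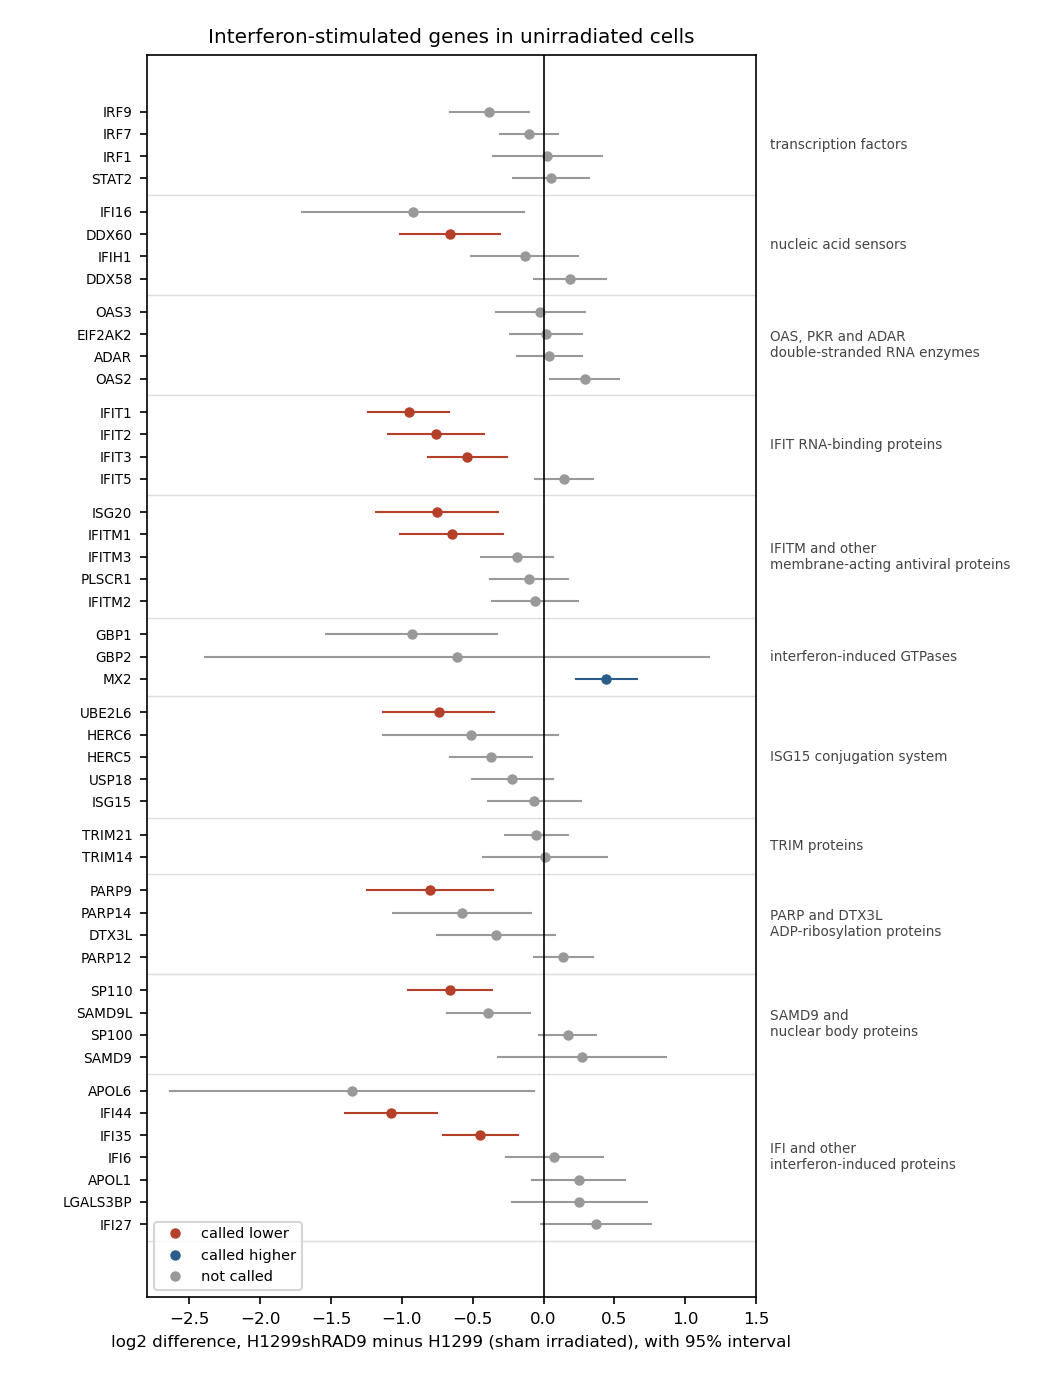
Difference between H1299shRAD9 and H1299 in sham irradiated cells for the 46 members tested, in log2 units with the 95% confidence interval, ordered by role, with called members marked. The 11 members called lower lie between -1.08 (IFI44) and -0.45 (IFI35), the 1 called higher is MX2 (0.44), and GBP2 and APOL6 have the widest intervals.

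The IFIT proteins, which bind viral RNA that lacks the cap methylation of host mRNA, lie side by side on chromosome 10, with probes at chr10:91068397-91068456 (IFIT2), chr10:91099762-91099821 (IFIT3), chr10:91163438-91163497 (IFIT1) and chr10:91179559-91179618 (IFIT5), all in hg19. Of these 4 genes, 3 were lower, and the median of the 4 was -0.65. IFIT1 had levels of 2.08, 1.98, 2.05, 2.48 and 1.90 in replicates 1 to 5 of H1299shRAD9 CTL, and 2.92, 3.19, 3.25, 3.02 and 2.87 in those of H1299 CTL. The highest H1299shRAD9 array was below the lowest H1299 array, and the difference was -0.95 (SE 0.13, 95% confidence interval -1.24 to -0.67, adjusted p = 0.00169), which corresponds to 51.7% of the H1299 level. IFIT2 ranged from 1.13 to 1.56 in H1299shRAD9 and from 1.84 to 2.68 in H1299, again without overlap (difference -0.76, SE 0.16, adjusted p = 0.0111). IFIT3 ranged from 1.12 to 1.67 and from 1.66 to 2.13, so that its groups just overlapped (difference -0.54, SE 0.13, adjusted p = 0.0199). IFIT5, with 3 copies of the response element in its promoter entry, was the exception at 3.45 and 3.30, a difference of 0.14 (SE 0.10) that was not called.

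Among the interferon-induced proteins of other or unassigned role, IFI44 had the lowest adjusted p after IFIT1 of all members. IFI44 is a cytoplasmic protein with antiviral activity, and its probe lies at chr1:79128479-79128538 (hg19). Its levels were -0.34, -0.43, -1.07, -0.48 and -0.76 in H1299shRAD9 CTL and 0.35, 0.35, 0.61, 0.66 and 0.33 in H1299 CTL. The lines did not overlap, and the difference was -1.08 (SE 0.15, adjusted p = 0.00174), or 47.4% of the H1299 level. IFI35, which encodes a leucine zipper protein that binds NMI, ranged from 2.55 to 2.85 and from 2.77 to 3.32 with overlap (difference -0.45, SE 0.12, adjusted p = 0.0305). In this group of 10 genes 7 were tested, 2 were lower and the median was 0.08. APOL1, a channel-forming lipoprotein gene, was not called (difference 0.25, SE 0.15), nor were IFI6 (0.08), IFI27 (0.37) and LGALS3BP (0.25).

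ISG20 encodes an exonuclease that degrades single-stranded RNA, and it was listed here with the membrane-acting IFITM proteins. Its levels in H1299shRAD9 CTL were 3.98, 3.97, 3.91, 3.68 and 3.55, and in H1299 CTL 3.99, 4.41, 5.23, 4.57 and 4.64. The closest arrays differed by little, yet no H1299shRAD9 array reached the H1299 range (difference -0.75, SE 0.20, adjusted p = 0.0266). IFITM1, which restricts viral entry at the cell membrane, ranged from -0.19 to 0.57 in H1299shRAD9 CTL, and no H1299 CTL array was below 0.61 (difference -0.65, SE 0.17, adjusted p = 0.0256), and its other probe gave -0.67, which was also called. IFITM3 and IFITM2 were not called at -0.19 and -0.06, and since these paralogs are nearly identical their signals may be shared. PLSCR1, a phospholipid scramblase, was not called either (-0.10). In all, 2 of the 5 members tested were lower, and the median of the 5 was -0.19.

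In the ISG15 conjugation system, all 5 members had values below 0 and 1 was called. UBE2L6, the conjugating enzyme for ISG15, had levels of 2.39, 2.35, 1.57, 1.76 and 1.55 in H1299shRAD9 CTL and between 2.54 and 2.89 in H1299 CTL. Here the lines did not overlap, but replicates 1 and 2 of H1299shRAD9 were close to H1299, and the difference over all arrays was -0.74 (SE 0.18, adjusted p = 0.0208). The modifier itself, ISG15, was at 6.27 ± 0.087 and 6.34 ± 0.33 (SD, n = 5 and 5), a difference of -0.06 (SE 0.15) that was not called. The ligase HERC5 (-0.37), its relative HERC6 (-0.52) and the deconjugating protease USP18 (-0.22) were not called.

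Among the nucleic acid sensors, DDX60, a helicase that assists RIG-I, ranged from 0.64 to 1.51 in H1299shRAD9 CTL and from 1.51 to 1.94 in H1299 CTL, without overlap before rounding (difference -0.66, SE 0.16, adjusted p = 0.0211). The RNA sensors IFIH1 (MDA5) and DDX58 (RIG-I) were not called, at -0.13 and 0.19. IFI16, a sensor of DNA in the nucleus and cytoplasm, had levels of 1.70, 1.67, -0.20, 0.44 and -0.10 in H1299shRAD9 CTL and of 1.38 to 1.85 in H1299 CTL. Replicates 1 and 2 were thus within the H1299 range and replicates 3 to 5 below it, and over all arrays the difference of -0.92 (SE 0.36) was not called.

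The ADP-ribosyltransferases PARP9 and PARP14 and the E3 ligase DTX3L, which pairs with PARP9, lie together on chromosome 3 (probes at chr3:122247297-122247356, chr3:122437444-122437503 and chr3:122293039-122293098, hg19). PARP9 had levels of 0.93, 0.89, -0.08, 0.56 and 0.13 in H1299shRAD9 CTL and from 0.99 to 1.65 in H1299 CTL. No array overlapped, with replicates 1 and 2 again nearest to H1299 (difference -0.80, SE 0.20, adjusted p = 0.0247). PARP14 (-0.58, adjusted p = 0.0938), DTX3L (-0.34) and PARP12 (0.14) were not called, and the median of the 4 was -0.46.

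SP110, a component of nuclear bodies, had levels of 2.95, 2.79, 2.78, 3.08 and 2.76 in H1299shRAD9 CTL and 3.27, 3.30, 3.90, 3.58 and 3.62 in H1299 CTL, at chr2:231042261-231042320 in hg19. The lines did not overlap (difference -0.66, SE 0.14, adjusted p = 0.0111). Its relative SP100, a defining protein of PML bodies, was not called by any of 3 probes, which ranged from -0.46 to 0.17. SAMD9, which restricts viral translation, was not called at 0.27. SAMD9L was not called by its brightest probe (-0.39) but was called by the other (-0.75).

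The interferon-induced GTPases did not move together. MX2, which blocks nuclear import of viral genomes, had levels of -0.02 to 0.23 in H1299shRAD9 CTL and of -0.49 to -0.19 in H1299 CTL, and was higher without overlap (difference 0.44, SE 0.10, adjusted p = 0.0159). The guanylate-binding protein GBP1 ranged from -2.55 to -0.94 against -0.97 to -0.46 and was not called (-0.93, SE 0.28, adjusted p = 0.0419, p above 0.005). GBP2 was spread from -2.77 to 1.44 in H1299shRAD9 CTL, on both sides of the -0.53 to 1.16 of H1299 CTL, and was not called (-0.61, SE 0.82).

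No member was called among the transcription factors, the RNA enzymes and the TRIM proteins. STAT2 differed by 0.05 (SE 0.12), IRF1 by 0.03, IRF7 by -0.10 and IRF9, the DNA-binding partner of STAT2, by -0.38 (SE 0.13, adjusted p = 0.0599). The RNA editing enzyme ADAR differed by 0.04 (SE 0.11), OAS2 and OAS3, which make the activator of RNase L, by 0.29 and -0.02, and the kinase EIF2AK2 (PKR) by 0.02 on its brightest probe and by -0.61 on the other, neither of which was called. TRIM14 differed by 0.01 (SE 0.20), and the cytosolic antibody receptor TRIM21 by -0.05.

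The largest difference of any member belonged to APOL6, an apolipoprotein L gene linked to cell death, and it was not called (-1.35, SE 0.59, adjusted p = 0.13). Its levels were -0.54, 0.61, -0.11, -0.95 and -0.97 in H1299shRAD9 CTL and 2.78, 0.44, -0.53, -0.05 and 2.18 in H1299 CTL. The H1299 arrays were spread over a wider range than the difference itself, and the groups overlapped.

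The remaining 11 members did not pass the background criterion. OAS1, TRIM22 and IFI44L were not well above background on any of the 50 arrays, and RSAD2, RTP4, EPSTI1, MX1, CMPK2 and XAF1 on no more than 4. BST2, which tethers virus particles to the cell, was above background on 12 arrays of H1299shRAD9 and 14 of H1299. OASL, an activator of RIG-I signaling, was above background on 25 of 25 H1299 arrays and on 3 of 25 H1299shRAD9 arrays. It had -1.67 to -3.72 in H1299shRAD9 CTL, where no array measured it, and -0.48 to -2.32 in H1299 CTL, so the levels overlapped (exact permutation test, 2-sided p = 0.0317, n = 5 and 5, not adjusted). The mean of OASL was at least 1.41-fold lower when the dim arrays are set to the lowest signal that was well above background. In DBP and BP, where H1299shRAD9 arrays did not measure it either, it was at least 1.38-fold and 1.65-fold lower. Probes that were never well above background sat higher in H1299shRAD9 CTL (median over arrays -3.74) than in H1299 CTL (-4.54), so no difference is given for the other members of this set.

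The difference between lines in CTL was computed again for the separate sets of H1299shRAD9 arrays. Without replicates 1 and 2, 15 members were called (13 lower, background 14.5%), with IFI44 at -1.23, UBE2L6 at -1.04, PARP9 at -1.08, IFI16 at -1.58 and GBP1 at -1.36, and IFI27, an IFI6 relative in mitochondria, now higher at 0.65. Without replicates 3 to 5, 5 members were called (background 7.12%). IFIT1 (-1.02), IFI44 (-0.84), IFIT3 (-0.68) and HERC5 (-0.58) were lower and SAMD9 was higher (0.94). IFIT1 and IFI44 were called in both sets. UBE2L6 (-0.30), PARP9 (-0.38) and IFI16 (0.06) were not called with replicates 1 and 2 alone, and GBP2 changed its sign (-1.59 without replicates 1 and 2, 0.85 without replicates 3 to 5, neither called). Which transfectant these sets hold is not in the labels, and its part was not tested.

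**Figure D2:**
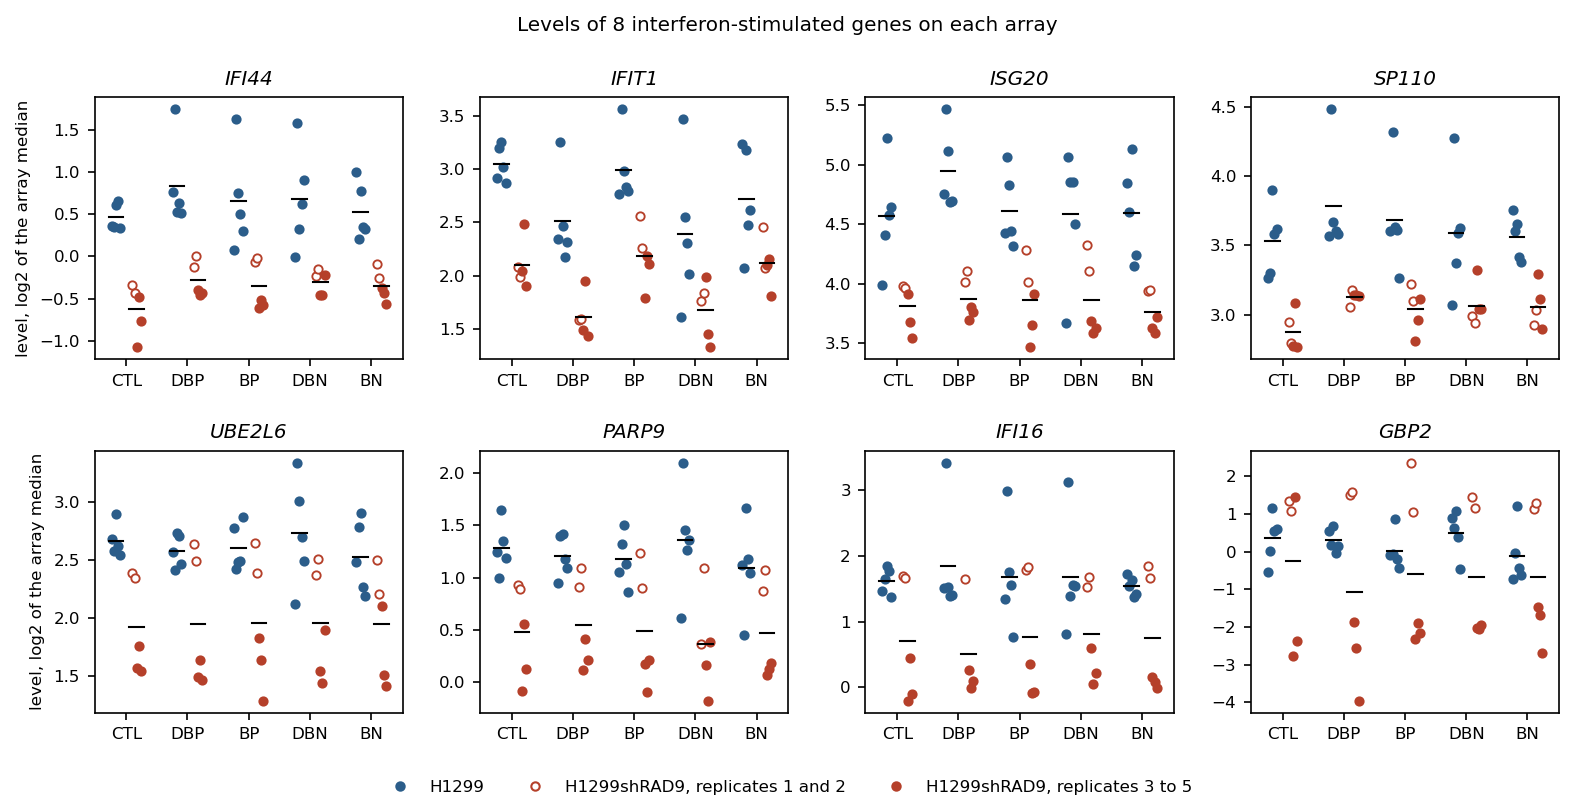
Log2 level relative to the array median of 8 members on every array, in the 5 groups of each line, with open symbols for H1299shRAD9 replicates 1 and 2. IFI44 and IFIT1 lie below H1299 in both sets of H1299shRAD9 arrays in CTL, and IFI16 (1.52 to 1.85 against -0.20 to 0.60 over the 5 groups), UBE2L6 and GBP2 separate replicates 1 and 2 from most of replicates 3 to 5.

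Of the receptors and kinases that act before the interferon-stimulated genes, the receptor chain IFNAR1 was higher (0.56) and the kinase TYK2 lower (-0.55) in H1299shRAD9 CTL, whereas JAK1 (-0.42) and IFNAR2 (-0.05) were not called, so that 1 of the 9 receptor and kinase genes tested was higher and 1 was lower. In the list of adaptors and kinases upstream of interferon 9 genes were tested. TMEM173, which encodes STING, was lower (-1.54) and its level followed the array sets. It was 4.74 to 5.14 in replicates 1 and 2 of all groups, within the 4.45 to 6.27 of H1299. In replicates 3 to 5 it was 2.29 to 2.88, below that range. TLR3, the endosomal receptor of double-stranded RNA, was lower as well (-0.92), and TRAF3 was higher (0.47). Of 21 interferon genes 2 were tested and of 7 negative regulators 5, with 0 called by limma in either list and 2 and 3 genes at an unadjusted p under 0.05. Of 44 further interferon-induced genes 30 were tested, of which SAMHD1, a dNTP hydrolase, was higher (0.37) and SP140L, a relative of SP110, lower (-1.41).

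The response element occurred in 6 of the 10 members called lower that had a promoter entry (60.0%), in 18 of the 27 that were tested and not called (66.7%), and in 5 of the 9 that were not tested. ISG15 and IFIT5 carry it in the entries described above and were not called, and IFI44, IFIT1 and ISG20 carry it and were lower. UBE2L6, PARP9, SP110 and IFI35 do not carry it and were lower as well.

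The same difference between lines was measured in the other 4 exposures, on arrays that the CTL comparison did not use. Lower members numbered 4 for DBP (5.39% of all probes were called, 3.54% lower and 1.86% higher), 4 for BP (6.57%, with 2.51% lower and 4.06% higher), 1 for DBN (2.47%, with 1.13% lower and 1.34% higher) and 4 for BN (7.52%, with 3.03% lower and 4.48% higher), and no member was higher in any of them. All 11 members that were lower in CTL had values below 0 in each of the other exposures, and 5 of them were called at least once more. The like shares among all probes called lower in CTL are not given here, so these counts have nothing to be set against. Over the 5 exposures together, 20 of the 46 members (43.5%) were below 0 throughout, against 18.3% of all probes, and 9 (19.6%) were above 0 throughout, against 38.4%. The medians of the members were -0.14, -0.03, -0.08 and -0.06 in DBP, BP, DBN and BN, and those of all probes 0.10, 0.12, 0.16 and 0.13.

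IFI44 was called in all 5 exposures. In DBP its levels were -0.13, 0.00, -0.40, -0.45 and -0.43 in H1299shRAD9 and 0.76, 1.74, 0.53, 0.64 and 0.52 in H1299. The lines did not overlap in any exposure, and the differences for DBP, BP, DBN and BN were -1.12, -1.01, -0.99 and -0.88, with adjusted p of 0.0246, 0.0545, 0.0967 and 0.0147. Replicate 2 of H1299 was the highest array in DBP, BP and DBN. In DBN the call was lost when any 1 of 9 arrays was left out, and without replicates 1 and 2 of H1299 DBN 4 members were called (background 5.09%), namely IFI44 (-0.92), ISG20 (-0.87), GBP1 (-0.99) and PARP9.

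ISG20 was called in DBP (-1.07), BP (-0.75) and BN (-0.83) and not in DBN (-0.72), where replicate 1 of H1299 was at 3.67 and the other H1299 arrays were at 4.51 to 5.06. SP110 was called in the same 3 exposures (-0.65, -0.65 and -0.51) and not in DBN (-0.52). IFIT1 was called in DBP (-0.90) and BP (-0.81) and not in DBN (-0.72) and BN (-0.60). DDX60 was called in BN (-0.49) and had values between -0.46 and -0.01 in the other 3. With each array left out in turn, ISG20 kept its call in 10 of 10 fits in DBP, 6 in BP and 10 in BN, SP110 in 2, 2 and 8, IFIT1 in 8 in DBP and 9 in BP, DDX60 in 4 in BN, and IFI44 in 10, 6 and 10 in DBP, BP and BN.

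IFIT2 had values of -0.87, -0.73, -0.79 and -0.72 in DBP, BP, DBN and BN, UBE2L6 of -0.63, -0.65, -0.77 and -0.57, and PARP9 of -0.66, -0.69, -0.99 and -0.62, none of which passed the test. IFITM1, IFIT3 and IFI35 likewise had values below 0 and were called in CTL alone, and MX2 was between -0.10 and 0.24 in the 4 exposures. Members above 0 in all 5 exposures were ADAR, APOL1, EIF2AK2, IFIT5, OAS2, PARP12, SAMD9, SP100 and TRIM14, none of them called. The highest values were those of SAMD9 in DBP (0.42), APOL6 in BP (0.46), EIF2AK2 in DBN (0.73) and APOL1 in BN (0.34), and the lowest those of GBP2 in DBP (-1.37) and DBN (-1.18), GBP1 in BP (-1.15) and IFI44 in BN.

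**Figure D3:**
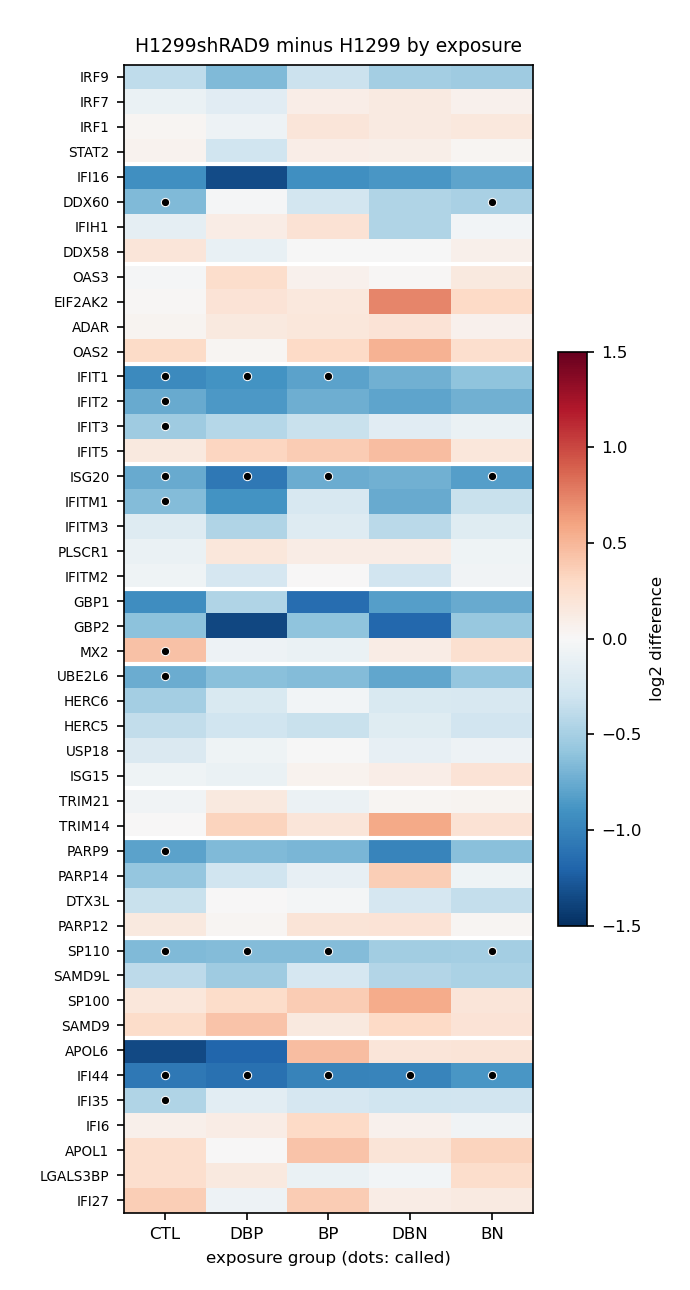
Difference between H1299shRAD9 and H1299 in log2 units for the 46 members tested (rows, by role) in the 5 exposures (columns), with a dot where a member was called. IFI44 is called in all 5 columns, ISG20 and SP110 in 4 and IFIT1 in 3, and no member is called higher except MX2 in CTL.

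The counts moved with the array sets here too. Without H1299shRAD9 replicates 1 and 2, 6 members were lower in DBP (background 7.79%), 8 in BP (7.52%), 2 in DBN (2.63%) and 7 in BN (8.84%). Without replicates 3 to 5, 1 member was called in DBP (background 1.55%), where GBP2 was higher at 1.23 against -3.11 without replicates 1 and 2, and 0 by limma in BP, DBN and BN (backgrounds 1.17%, 0.503% and 2.81%), where 2, 1 and 9 members had an unadjusted p under 0.05, against 10.6%, 5.5% and 15.1% of all probes. No slide or scan day held arrays of both lines in CTL, DBP and BN, where the slide and the line cannot be told apart. In BP 1 slide held 1 array of each line, with replicate 1 of H1299shRAD9. There 15 of the 46 members were lower and the median of the members was 0.20, with IFI44 at -0.37 and IFIT1 at -0.24. In DBN 1 scan day held 1 and 2 arrays, with replicate 5 of H1299shRAD9. There 31 of the 46 were lower and the median was -0.15, with IFI44 at -0.98 and IFIT1 at -0.83. Shares over all probes are not given for these arrays.

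Whether irradiation changed the members was tested within each line against CTL, with the replicate number as a block (p under 0.006 and adjusted p under 0.1, limma). The 4 comparisons of a line share its CTL arrays, and those of H1299shRAD9 had the lowest 5' to 3' index of that line, as given above. In H1299shRAD9, 2 members were called in DBP (background 1.3%), 1 in BP (1.62%), 2 in DBN (2.93%) and 0 in BN (0.0299%), where 11 members had an unadjusted p under 0.05, against 13.5% of all probes. In H1299 none was called in DBP, BP, DBN or BN by limma (backgrounds 0.0349%, 0%, 0.00996% and 0%), and 1, 4, 1 and 4 members had an unadjusted p under 0.05, against 5.57%, 5.68%, 3.25% and 3.42% of all probes. The calls in H1299shRAD9 concerned IFIT1, PARP14 and APOL6 alone, and were all lost in the fit without the replicate block.

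PARP14, a mono-ADP-ribosyltransferase that acts on STAT signaling, was higher than CTL in DBP, BP and DBN of H1299shRAD9. Its levels in replicates 1 to 5 were 2.12, 1.57, 1.28, 1.24 and 1.49 in CTL, 2.34, 2.14, 1.83, 1.72 and 2.04 in DBP, 2.50, 2.09, 1.57, 1.69 and 2.28 in BP, and 2.68, 2.31, 2.04, 2.15 and 1.73 in DBN. Each of the 5 pairs was higher than its CTL in all 3 groups, although the groups overlapped, and the differences were 0.47 (SE 0.09, adjusted p = 0.0785), 0.49 (SE 0.10, adjusted p = 0.0741) and 0.64 (SE 0.11, adjusted p = 0.0563). In BN 4 of the 5 pairs were higher, and the difference of 0.50 was not called (SE 0.17, adjusted p = 0.272). In H1299, PARP14 differed from CTL by 0.19, 0.04, -0.30 and -0.02 in DBP, BP, DBN and BN. The difference between the lines in this change was largest in DBN (0.94, SE 0.24) and did not pass the test (adjusted p = 0.179).

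APOL6 was higher than CTL in DBN of H1299shRAD9, with levels of 0.60, 2.83, 2.26, 0.29 and 0.17 against the CTL values given above. All 5 pairs rose, by 1.62 on average (SE 0.21, adjusted p = 0.0344), and the call was lost without replicate 3 (1.43). In BN the levels were 2.09, 2.77, 1.39, -0.45 and -0.20, again higher in all 5 pairs, and the difference of 1.51 (SE 0.31) was not called (adjusted p = 0.169). In H1299 the 4 differences ran from -1.43 in BP, where all 5 pairs were below 0, to 0.34 in DBP without a call. The difference between the lines was 1.54 in DBN (adjusted p = 0.238) and 1.55 in BN (adjusted p = 0.628), neither of which passed the test.

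IFIT1 was lower than CTL in DBP of H1299shRAD9, with 1.58, 1.59, 1.49, 1.95 and 1.43 in replicates 1 to 5. All 5 pairs fell, by 0.49 on average (difference -0.49, SE 0.08, adjusted p = 0.0609). In DBN all 5 pairs were below 0 as well, and the difference of -0.43 was not called (adjusted p = 0.236). The bystander groups were at 0.08 in BP and 0.02 in BN. In H1299 the differences from CTL were -0.54, -0.06, -0.66 and -0.33 for DBP, BP, DBN and BN, with no call. Set directly against the bystander cells of the same dishes, IFIT1 was the lowest member in DBP (-0.57, adjusted p = 0.411) and DBN (-0.44, adjusted p = 0.881) of H1299shRAD9 and in DBP of H1299 (-0.48, adjusted p = 0.656), and at -0.33 in DBN of H1299, none of which passed the test.

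**Figure D4:**
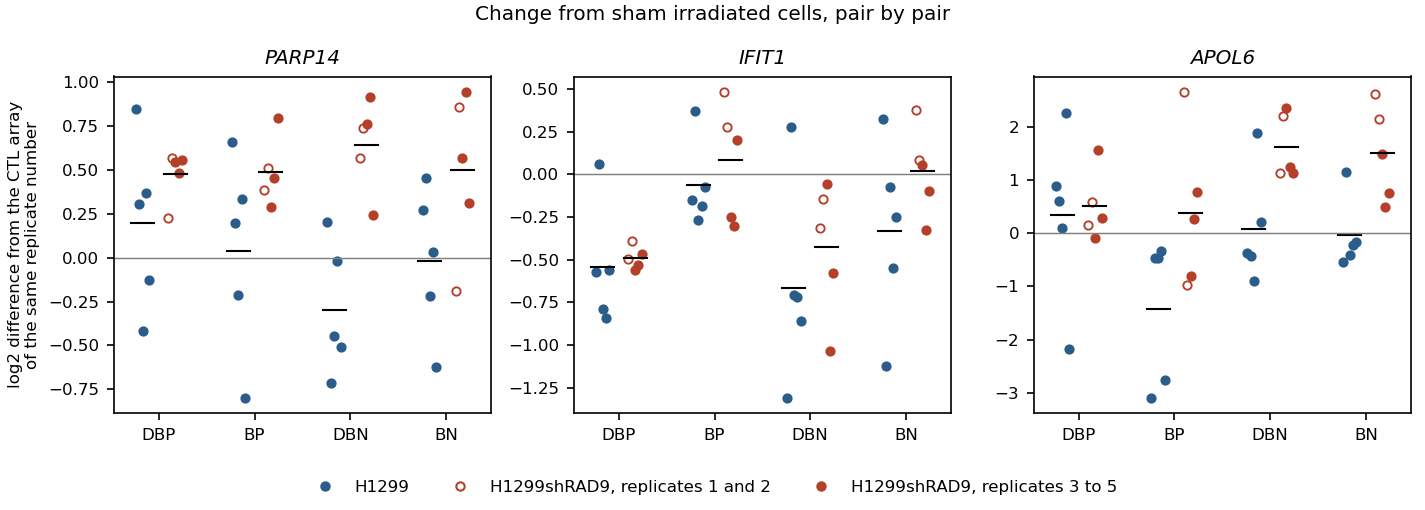
Difference from the CTL array of the same replicate number in log2 units for PARP14, IFIT1 and APOL6, in the 4 irradiated and bystander groups of each line. In H1299shRAD9 all 5 pairs lie above 0 for PARP14 in DBP, BP and DBN and for APOL6 in DBN and BN, and all 5 lie below 0 for IFIT1 in DBP and DBN, and in H1299 all 5 lie below 0 for APOL6 in BP. APOL6 in BN, IFIT1 in DBN and APOL6 in H1299 were not called.

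These calls were few and close to the threshold. Without replicate 1 of H1299shRAD9, 4 members were called in DBP, and without any other replicate 0. In BP PARP14 was called without replicate 3 but not without any of the others, and in DBN the count went from 2 to 0 without replicate 3 and to 1 without replicate 1, 2 or 4. Shares of all probes called are not given for these fits, so the counts have nothing to be set against. Pairs of arrays on a single slide had IFIT1 at -0.53 to -0.47 and PARP14 at 0.48 to 0.56 in DBP (2 pairs), PARP14 at 0.46 to 0.79 in BP (2 pairs), and PARP14 at 0.57 and APOL6 at 1.14 in DBN (1 pair). These pairs are part of sets in which all pairs had one sign, so their sign is no separate check. The other probe of EIF2AK2 was called higher in DBN of H1299shRAD9 (0.88), where its brightest probe was not (0.33).

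The transcription factors of the interferon response were not called in any group. IRF9 had values of -0.29, -0.38, -0.36 and -0.38 in DBP, BP, DBN and BN of H1299shRAD9, where all 20 pairs were below 0, and of -0.01, -0.45, -0.24 and -0.23 in those of H1299, where 16 of 20 pairs were. The pairs of a line share its CTL arrays, so these signs are not independent of each other. STAT2 was between -0.21 and 0.24, IRF7 between -0.12 and 0.22, and ISG15 between -0.20 and 0.11. The lowest members were otherwise GBP2 in DBP (-0.81) and BN (-0.43) of H1299shRAD9 and in BN of H1299 (-0.47), and IFI27 in DBN of H1299shRAD9 (-0.44). The highest were APOL6 in DBP of H1299shRAD9 (0.51), IFI44 in DBP of H1299 (0.38), and OAS2 in BP (0.47), DBN (0.29) and BN (0.19) of H1299.

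The last comparisons gave no call among the members. Directly irradiated cells were compared with the bystander cells of the same dishes (0 members by limma in all 4, backgrounds 0.0797%, 0.0797%, 0% and 0.00498%), with 2 to 4 members at an unadjusted p under 0.05 except in DBN of H1299, where there was 1 (2.24% to 6.94% of all probes). The highest members were GBP1 (0.31) and OAS2 (0.37) in H1299shRAD9 DBP and DBN, and APOL6 (1.77, SE 0.49, adjusted p = 0.656) and GBP2 (0.62) in H1299 DBP and DBN, and the lowest in H1299 DBN was EIF2AK2 (-0.42). Dishes whose bystander cells responded with micronuclei were compared with those that did not, without a block. In all 4 comparisons, 0 members and 0% of all probes were called by limma. At most 1 member had an unadjusted p under 0.05, against 0.364% to 1.52% of all probes. These fits kept the spread between replicate numbers in their error, unlike the comparisons with a block. IFIH1 was highest (0.35) and APOL6 lowest (-1.11) for DBP against DBN of H1299shRAD9, OAS2 (0.33) and APOL6 (-1.12) for BP against BN, PARP14 (0.49) and GBP1 (-0.29) for DBP against DBN of H1299, and MX2 (0.39) and APOL6 (-1.39) for BP against BN. No member passed the test of whether its change from CTL differed between the lines (0 members, backgrounds 0%, 0%, 0.0149% and 0%), with 1, 2, 4 and 2 members at an unadjusted p under 0.05, against 7.74%, 6.52%, 7.03% and 7.28% of all probes. Its highest and lowest values were those of DDX60 (0.65) and GBP2 (-0.76) in DBP, APOL6 (1.81) and MX2 (-0.54) in BP, APOL6 and GBP2 (-0.57) in DBN, and APOL6 and IFI27 (-0.24) in BN.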

How the data were processed

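RNA of 50 dishes was hybridized to Agilent 1-color whole human genome arrays. Per the file headers, the deposited intensity values had been background corrected by Feature Extraction, with low spots set to a surrogate value. The authors' log2 values, deposited for 9502 features (31 members), served as an alternative. Here, the log2 intensity of each spot was taken relative to the median of its array, outlier spots were left out, and spots of a probe were averaged. Probes that failed to exceed background clearly, or were outliers, on at least 25% of arrays were excluded, which left 20079 of 34127, with 733 missing values. Groups were compared with limma 3.58.1 (lmFit and eBayes, R 4.3.3) and Benjamini-Hochberg adjustment over all probes tested, at an adjusted p under 0.1 together with an unadjusted p under 0.005 (between lines, no block) or under 0.006 (within lines). The number of arrays, 5 per group, limits the precision, and the exact permutation test of 5 against 5 has a smallest p of 0.00794.

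The methods describe matched samples. Within a line, the replicate number was the block against CTL and for directly irradiated against bystander cells. The test of whether the change from CTL differed between the lines used it too. DBP with DBN and BP with BN come from different dishes and were compared without a block. Deviations of same-numbered arrays from their group means correlated at 0.469 to 0.517 on average in H1299shRAD9 against CTL, where each of the 5 pairs was over 0.1, and at 0.145 to 0.413 in H1299, where 3 of 5 pairs were over 0.1 in BP and DBN. For DBP with DBN and BP with BN, the values were 0.389 and 0.341 in H1299shRAD9, and 0.560 and 0.185 in H1299. Arrays of unmatched dishes thus correlated too, and the replicate sets of H1299shRAD9 ran through all groups. The correlations therefore do not show that same-numbered arrays were matched.

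The members and the gene lists were chosen with earlier results of these data known, so counts are given beside those of all probes and support nothing by themselves. Named members are all those called, the brightest of each role group, and the highest and lowest of each comparison, with further ones named after their values were seen. A few genes of the further lists are not reported here. A check of the fits on simulated data has no result given here, so nothing rests on it. Alternatives were the 75th percentile, quantile normalization, normexp with an offset of 50, other background criteria, the study's criterion of 1.3-fold variation in 20% of arrays, the authors' values, blocks for replicate and slide, all arrays in one fit, an adjusted p under 0.05, and each array left out. Leaving out sets of arrays that stood apart was added after seeing the data.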

Additional observations from a re-analysis of the deposited data

Results flagged for a closer look

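The levels printed for single arrays were examined for an array far from the other 4 of its group, with Dixon's critical value of 0.71 for 5 values. Of 82 groups of 5 levels, 5 had such an array, and chance flags about 1 in 20 groups. In H1299, replicate 2 of DBP was high for IFI44 (1.74, others 0.52 to 0.76), for IFIT1 (3.25, others 2.18 to 2.46) and for SP110 (4.48, others 3.57 to 3.67), and replicate 2 of BP was high for IFIT1 (3.56, others 2.77 to 2.98). These are 2 of the 3 H1299 arrays that stood apart over all probes. In H1299shRAD9, replicate 3 of DBN was high for SP110 (3.32, others 2.94 to 3.04).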

How the results depend on the processing

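Of 621 recomputed values of members called in a comparison, 620 kept their direction and 451 stayed past the threshold. SP110 in BN between lines turned to 0.14 under normexp. IFI44 and IFIT1 were called between lines in CTL under all 23 alternatives. The 12 members called in CTL became 7 with the replicate block (lines share only a number, not a dish), 8 to 14 when 1 array was left out, and 5 without H1299shRAD9 replicates 3 to 5. The 4 called in DBP became 0 under normexp, 9 without a background criterion, 2 to 6 with 1 array left out, and 1 without replicates 3 to 5. The 4 called in BP became 2 without a background criterion or with the replicate block, 0 to 6 with 1 array left out, 8 without replicates 1 and 2 and 0 without replicates 3 to 5. They were 1 without H1299shRAD9 replicate 3 or 4 or H1299 replicate 3, and 0 without H1299shRAD9 replicate 5. The 1 called in DBN became 8 at the 75th percentile, 5 under quantile normalization, 0 under normexp, 3 with a criterion of 4 of 5 arrays, 2 with the 1.3-fold criterion, 9 with all arrays in one fit, 5 with the authors' values, 4 with the replicate block, 0 to 5 with 1 array left out (5 without H1299 replicate 1, 0 without 8 others), 2 without H1299shRAD9 replicates 1 and 2, 0 without replicates 3 to 5, and 4 without H1299 replicates 1 and 2. The 4 called in BN became 0 under normexp, 2 with the 1.3-fold criterion, 2 to 6 with 1 array left out (2 without H1299shRAD9 replicate 5), 7 without replicates 1 and 2 and 0 without replicates 3 to 5. In DBP without H1299shRAD9 replicate 3 or 5, 2 members were called. Shares of all probes called are given above for the fits without sets of arrays, and not for the other settings. Those other counts have nothing to be set against and are not read as results about the members.

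The calls against CTL in H1299shRAD9 (2 in DBP, 1 in BP, 2 in DBN) were 0 without the replicate block, with slide as a random block, or without a background criterion, and 0, 0 and 1 with all arrays in one fit. In BP it was 0 with the authors' values. With 1 replicate left out they were 0 to 4, 0 to 1 and 0 to 2, and the test between lines in DBN gave 0 to 1 (1 without replicate 1). Without a background criterion 6 members were called in DBP against BP and 1 in DBP against DBN of H1299shRAD9. For these settings too, shares of all probes called are not given. The cause was not tested.

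The medians of the members between lines in CTL, DBP, BP, DBN and BN were -0.55, -0.37, -0.25, -0.45 and -0.35 with the 1.3-fold criterion (28 members), and -0.45, -0.39, -0.32, -0.56 and -0.40 with the authors' values (31 members), both of which keep only features that vary. Under normexp the median was 0.27 in BN between lines, -0.18, -0.22 and -0.60 in DBP, BP and BN against CTL of H1299, 0.48 in DBN against BN and 0.36 in BP against BN of H1299, and 0.67 for the test between lines in BN. Of 880 recomputed counts and medians, 794 stayed within 1.5 times the count or the spread between arrays. Low signal limits the 11 members that were not tested.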
